A study of Mus musculus with 9 samples.

Results

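AMP-activated protein kinase (AMPK) and the mTOR kinase are the main sensors that set a cell's metabolism to its energy and nutrient supply. They were followed here through 10 genes, *Prkaa1*, *Prkaa2*, *Prkab1*, *Prkab2*, *Prkag1*, *Prkag2*, *Mtor*, *Rptor*, *Tsc1* and *Tsc2*, taken as every non-control probe that carried one of these names. All 10 were on the array, with 11 of its 39429 probes, since *Rptor* had 2 probes and the others 1 each, and they stand among 21905 gene names that passed the filter on dim probes. Their mRNA was measured in the hippocampus of male C57BL/6J mice aged 9 months with 3 genotypes of 3 mice each, *IF1*-KO, CRL (control) and *IF1*-TG, with 1 single-dye Agilent gene array per mouse and no treatment. *IF1*-KO mice lack exon 3 of *Atp5if1*, the gene of the ATP synthase inhibitor IF1 (named *Atpif1* on the array), where a *Camk2a* promoter drives Cre in floxed mice. *IF1*-TG mice carry human IF1 behind a tetracycline-regulated element together with a transactivator driven by the *Camk2a* promoter. That promoter works mostly in excitatory forebrain neurons, so other cells of the hippocampus are not targeted and still contribute RNA to every value. The labels do not give the alleles of the CRL mice. Nothing in the labels says whether mice shared a litter. In such tissue, fewer cells of a type and less RNA per cell cannot be told apart.

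AMPK is a heterotrimer of a catalytic alpha, a scaffold beta and a nucleotide-binding gamma subunit, and it is switched on when AMP and ADP rise relative to ATP. It phosphorylates the TSC complex, which holds the GTPase Rheb inactive, and Raptor, the scaffold of mTOR complex 1, and thereby slows protein synthesis. In the hippocampus mTOR complex 1 is known for its part in the protein synthesis that long-lasting synaptic plasticity needs. Both kinases are controlled largely through phosphorylation, which mRNA levels do not show.

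The arrays lay on 3 slides, with *IF1*-TG replicates 1 and 2 alone on slide 1, a mixture of all genotypes on slide 2 (*IF1*-KO replicate 1, CRL replicates 1 and 2, *IF1*-TG replicate 3) and the remaining *IF1*-KO and CRL arrays on slide 3. The 75th percentile of the processed intensity ranged from 1552 to 2690 across arrays, and between 66.7% and 74.9% of probes were well above background, with the *IF1*-TG arrays lowest (66.7% to 69.5%). All 13 listed markers of hippocampal neurons passed the filter on dim probes, 12 of them well above background on all 9 arrays. *Atpif1* signal, given like every level here as log2 relative to the array's 75th percentile, was 5.20 and 5.53 on *IF1*-KO replicates 2 and 3. The array labelled *IF1*-KO replicate 1 gave 6.43, above the CRL arrays (6.19 to 6.34), so its label is not borne out by this probe. The position of the probe relative to the deleted exon was not determined. The difference between *IF1*-KO and CRL mice was -0.56 for *Atpif1* with that array (unadjusted *P* = 0.0725 in limma). Its interval ran from 0.443-fold to 1.04-fold, so a lowered level in *IF1*-KO mice was not established by this probe. The difference was -0.91 without that array, and it shrank to -0.30 at the least when another array was left out. The *IF1*-TG arrays read 6.38 to 6.51, above the CRL arrays, but the difference between these genotypes was 0.16 (unadjusted *P* = 0.567 and adjusted *P* = 0.898 in limma), with an interval from 0.728-fold to 1.72-fold, so a raised level in *IF1*-TG mice was not established by this probe. Whether the probe also reads the human transgene was not determined.

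None of the 10 genes differed between genotypes past the thresholds used for these arrays, a fold change of at least 1.5 with an unadjusted *P* below 0.05 in limma. Over all 27991 probes kept, 3.77% passed both thresholds in *IF1*-TG against *IF1*-KO mice, 4.47% in *IF1*-TG against CRL mice and 1.06% in *IF1*-KO against CRL mice, so 0 of 11 probes is near the background share. At an unadjusted *P* below 0.05 alone the count was also 0 of 11 in each comparison, beside 7.12%, 8.52% and 2.57% of all probes. No adjusted *P* of the 11 probes was under 0.62 in any comparison. All 11 probes were well above background on all 9 arrays. The median log2 difference of the 10 genes, each by its brightest probe, was -0.01 for *IF1*-TG minus *IF1*-KO, 0.02 between *IF1*-TG and CRL and 0.00 between *IF1*-KO and CRL mice. The medians over all 21905 genes were 0.01, 0.00 and -0.01.

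**Figure D1:**
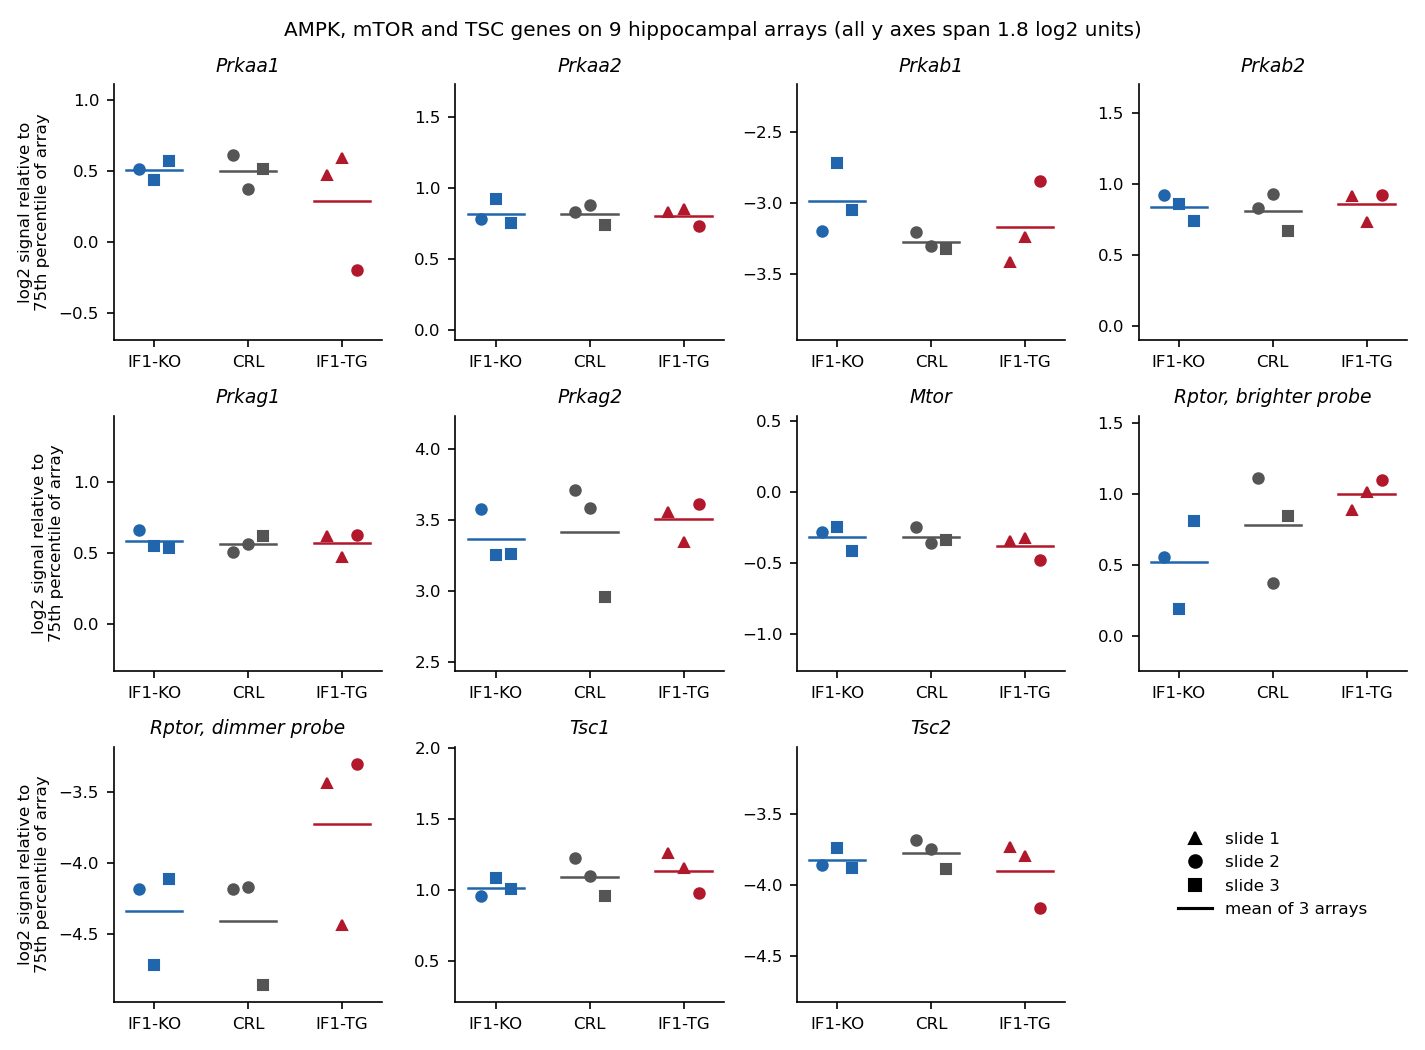
Log2 signal over the array's 75th percentile (y axis, each panel spanning the same range) of the 11 probes in 3 *IF1*-KO, 3 CRL and 3 *IF1*-TG mice, with 1 point per array, the point's shape giving its slide and lines the mean of 3 arrays. *Prkaa2*, *Prkag1* and *Mtor* vary little, *Prkag2* is lowest on the 3 arrays of slide 3 (2.96 to 3.26), and *Prkaa1* stands low (-0.19) on a single *IF1*-TG array.

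Because the array reads each gene through a probe of 60 bases, the probes of closely related subunits were compared first. The 30-base stretches that hold the longest run shared by the 2 catalytic subunit probes and by the 2 *Rptor* probes are shown, 5′ to 3′ as printed on the array, with that run in capitals.
Prkaa1: tcgggagacgcaagAGCTTaatatatctaa
Prkaa2: gtatacttccaaAGCTTgatctctgtgacc
Rptor, brighter probe: ccaaaatgagagttGAAAGGActgacagga
Rptor, dimmer probe: tcacagcatcaGAAAGGAaactaagacaac
The 2 catalytic subunit probes shared no run longer than 5 bases and the 2 *Rptor* probes none longer than 7. Among all 55 pairs of the 11 probes the longest shared run was between 4 and 10 bases. Shared runs are a description of the letters and were not tested as binding. Probe positions below are those of the array annotation, on mm9, and no annotation of that build was used to place them in exons or UTRs.

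*Prkaa2* encodes the alpha2 catalytic subunit of AMPK (probe at chr4:104707708-104707767, minus strand). Its level was 0.78, 0.93 and 0.75 on the *IF1*-KO arrays, 0.83, 0.88 and 0.74 on the CRL arrays and 0.83, 0.85 and 0.73 on the *IF1*-TG arrays. The genotypes overlapped fully and each contained an array close to the lowest value. Between *IF1*-TG and *IF1*-KO mice the log2 difference was -0.02 (standard error 0.11), and its 95% interval ran from 0.836-fold to 1.17-fold. Intervals of the same width were found against CRL mice, from 0.838-fold to 1.17-fold for *IF1*-TG and from 0.847-fold to 1.19-fold for *IF1*-KO mice.

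*Prkaa1* encodes the alpha1 catalytic subunit (chr15:5131426-5131485, plus strand). It gave 0.52, 0.44 and 0.57 on the *IF1*-KO arrays, 0.61, 0.37 and 0.52 on the CRL arrays and 0.47, 0.59 and -0.19 on the *IF1*-TG arrays. Of the 9 arrays, 8 lay between 0.37 and 0.61, and *IF1*-TG replicate 3 lay apart from them. The log2 difference was -0.22 against *IF1*-KO and -0.21 against CRL mice (standard error 0.20 each, adjusted *P* = 0.801 and 0.80 in limma). Without *IF1*-TG replicate 3 the differences were 0.02 and 0.03. With slide as a block they were -0.70 and -0.69 (standard errors 0.18 and 0.17), past both thresholds with adjusted *P* of 0.588 and 0.287 in limma. That block sets *IF1*-TG replicate 3 alone against the other genotypes, since the other two *IF1*-TG arrays share slide 1 with no other genotype. Within slide 2 this array differed by -0.71 from *IF1*-KO replicate 1 and by -0.68 from the mean of CRL replicates 1 and 2 in log2 units.

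The beta subunits hold the trimer together. *Prkab2* (chr3:97476843-97476902, plus strand) was measured at 0.92, 0.86 and 0.74 in *IF1*-KO, 0.83, 0.93 and 0.67 in CRL and 0.91, 0.73 and 0.92 in *IF1*-TG mice. The 3 genotypes covered nearly the same range, and the largest of the 3 log2 differences was 0.05, between *IF1*-TG and CRL mice (standard error 0.12). *Prkab1* (chr5:116464650-116464709, minus strand) gave -3.19, -2.72 and -3.05 on the *IF1*-KO arrays, -3.21, -3.30 and -3.32 on the CRL arrays and -3.41, -3.24 and -2.84 on the *IF1*-TG arrays. Every *IF1*-KO array was above every CRL array, the nearest pair almost meeting, and the *IF1*-TG arrays reached below the lowest CRL array and above 2 of the 3 *IF1*-KO arrays. It was the only one of the 11 probes without overlap in that comparison, where 7.95% of all probes had none. The log2 difference was 0.29 (standard error 0.18, adjusted *P* = 1 in limma), with an interval from 0.921-fold to 1.62-fold. Leaving out the array labelled *IF1*-KO replicate 1 gave 0.39 and leaving out *IF1*-KO replicate 2 gave 0.16. For *IF1*-TG mice the *Prkab1* difference was -0.18 against *IF1*-KO and 0.11 against CRL mice (standard error 0.18 each), and with slide as a block 0.23 (standard error 0.23) and 0.48 (standard error 0.21, unadjusted *P* = 0.0649 in limma).

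The gamma subunits bind AMP, ADP and ATP. *Prkag1* (chr15:98643402-98643461, minus strand) was the steadiest of the 11 probes, at 0.66, 0.55 and 0.54 in *IF1*-KO, 0.51, 0.56 and 0.62 in CRL and 0.62, 0.47 and 0.63 in *IF1*-TG mice. All 3 log2 differences were within 0.02 of 0 (standard error 0.10 each). The intervals were from 0.843-fold to 1.17-fold between *IF1*-TG and *IF1*-KO, from 0.853-fold to 1.19-fold between *IF1*-TG and CRL and from 0.858-fold to 1.19-fold between *IF1*-KO and CRL mice.

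*Prkag1* was also the only one of the 10 genes printed repeatedly, with 10 spots on each array, of which 8 to 10 were usable. The standard deviation between its spots was 0.03 on CRL replicate 3, 0.05 and 0.09 on *IF1*-KO replicates 3 and 2 and 0.12 on *IF1*-KO replicate 1. It was 0.21 and 0.45 on CRL replicates 2 and 1 and 0.25, 0.34 and 0.34 on *IF1*-TG replicates 1, 2 and 3. The 3 arrays of slide 3 had the tightest spots. Slide 3 was also lowest for the median over 316 kept probes printed as 10 spots, which was 0.04 to 0.07 on slide 3 and 0.19 to 0.27 on the other two slides. The other 9 genes rest on single spots, so their values on slides 1 and 2 carry a spot error that cannot be averaged within an array. This comparison of spots was chosen after the values had been seen.

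**Figure D2:**
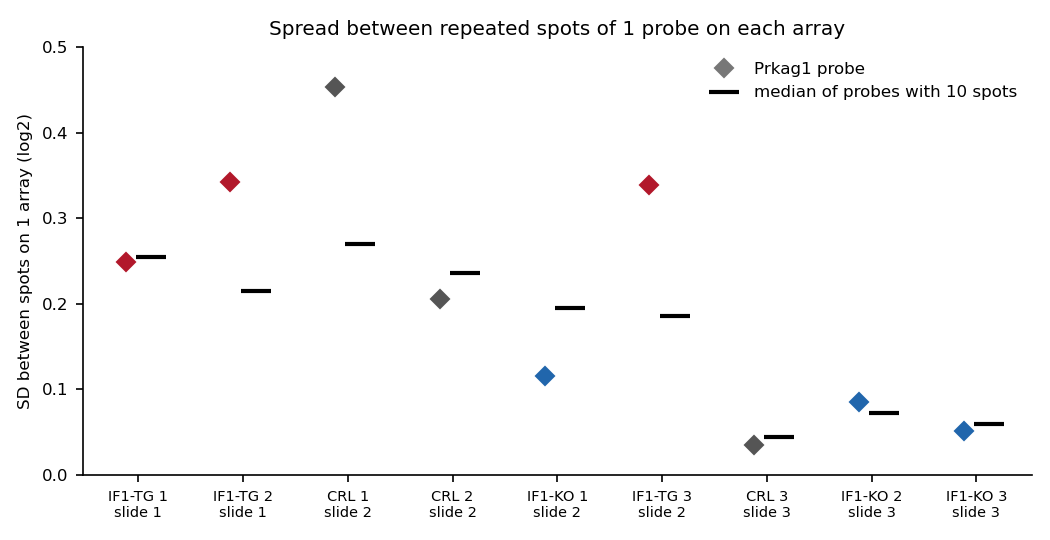
Standard deviation in log2 units (y axis) between the repeated spots of the *Prkag1* probe on each array (diamonds, coloured by genotype) and the median of the same quantity over 316 probes with 10 spots (bars), with arrays ordered by slide. Slide 3 lies lowest in both, at 0.03 to 0.09 for *Prkag1* and 0.04 to 0.07 for the median.

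*Prkag2* (chr5:24368591-24368650, minus strand) was 3.58, 3.25 and 3.26 on the *IF1*-KO arrays, 3.71, 3.58 and 2.96 on the CRL arrays and 3.56, 3.35 and 3.61 on the *IF1*-TG arrays. The genotypes overlapped, and the values divided by slide instead. The 3 arrays of slide 3, from 2.96 to 3.26, were all below the 6 other arrays, from 3.35 to 3.71. In the limma fit with genotype and slide, slide 3 minus slide 2 came to -0.50 in log2 units (standard error 0.14, adjusted *P* = 0.367 over all probes), a term examined after the values had been seen. Over all probes 6.09% had their slide 3 arrays below all others, and 10.1% had an unadjusted *P* below 0.05 for slide. Between *IF1*-KO and CRL mice the log2 difference was -0.05 (standard error 0.21) without slide and 0.12 (standard error 0.14) with it. *IF1*-TG mice differed from *IF1*-KO mice by 0.14 and from CRL mice by 0.09 (standard error 0.21 each), and with slide in the fit by -0.09 (standard error 0.20) and 0.02 (standard error 0.19).

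*Mtor*, which encodes the kinase shared by mTOR complexes 1 and 2 (chr4:147931250-147931309, plus strand), gave -0.28, -0.24 and -0.42 in *IF1*-KO, -0.24, -0.36 and -0.34 in CRL and -0.34, -0.32 and -0.48 in *IF1*-TG mice. All 9 arrays lay within a narrow range, and the genotypes overlapped. The log2 difference was -0.07 for *IF1*-TG against either of the other genotypes and 0.00 between *IF1*-KO and CRL mice (standard error 0.11 each). The intervals of that fit reached from 0.805-fold to 1.18-fold over the 3 comparisons. With slide as a block the differences of *IF1*-TG mice were -0.19 against *IF1*-KO and -0.18 against CRL mice (standard errors 0.16 and 0.15).

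*Rptor* encodes Raptor, which brings substrates to mTOR complex 1, and was the member with the widest differences. Its brighter probe (chr11:119760596-119760655, plus strand) read 0.56, 0.19 and 0.81 on the *IF1*-KO arrays, 1.11, 0.38 and 0.85 on the CRL arrays and 0.89, 1.01 and 1.10 on the *IF1*-TG arrays. All *IF1*-TG arrays were above all *IF1*-KO arrays, and the CRL arrays spread over nearly the whole range of both. In that comparison 1 of the 11 probes did not overlap, beside 13.5% of all probes, and between *IF1*-TG and CRL mice none of the 11 was without overlap, beside 12.1%. The log2 difference between *IF1*-TG and *IF1*-KO mice was 0.48 (standard error 0.22, unadjusted *P* = 0.0553 and adjusted *P* = 0.71 in limma), with an interval from 0.991-fold to 1.97-fold. At the same difference, short of a 1.5-fold change, its unadjusted *P* in limma was 0.0444 with trend and robust options, 0.0358 in a fit of only these genotypes, and 0.042, 0.029 and 0.0718 with CRL replicate 1, 2 or 3 left out. The mean of both *Rptor* probes gave 0.55 (unadjusted *P* = 0.0363 in limma), also short of that fold. The brighter probe alone came to 0.33 (unadjusted *P* = 0.171 in limma) after normexp and quantile normalization, 0.60 (standard error 0.38, unadjusted *P* = 0.168 in limma) with slide as a fixed block and 0.49 (unadjusted *P* = 0.0613 in limma) with slide as a random block. The difference of this probe was 0.22 between *IF1*-TG and CRL and -0.26 between *IF1*-KO and CRL mice (standard error 0.22 each). With the array labelled *IF1*-KO replicate 1 left out the *IF1*-TG minus *IF1*-KO difference was 0.50, without *IF1*-KO replicate 2 it was 0.32, and without *IF1*-KO replicate 3 it was 0.63 and passed both thresholds (adjusted *P* = 0.845 in limma).

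The dimmer *Rptor* probe (chr11:119693359-119693418, plus strand), which the annotation gives to another transcript, read -4.18, -4.71 and -4.11 on the *IF1*-KO arrays, -4.18, -4.17 and -4.86 on the CRL arrays and -3.43, -4.43 and -3.30 on the *IF1*-TG arrays. *IF1*-TG replicates 1 and 3 were above the other 7 arrays, while *IF1*-TG replicate 2 lay among them. The log2 difference was 0.61 against *IF1*-KO and 0.68 against CRL mice (standard error 0.33 each, adjusted *P* = 0.72 and 0.62 in limma). Without *IF1*-TG replicate 2 the differences were 0.97 and 1.04, both past the thresholds with adjusted *P* of 0.412 and 0.252 in limma. With slide as a block they were 0.73 and 0.95 (unadjusted *P* = 0.165 and 0.0665 in limma). Neither *Rptor* probe met the thresholds with all 9 arrays, and both intervals leave room for more than a 1.5-fold increase.

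**Figure D3:**
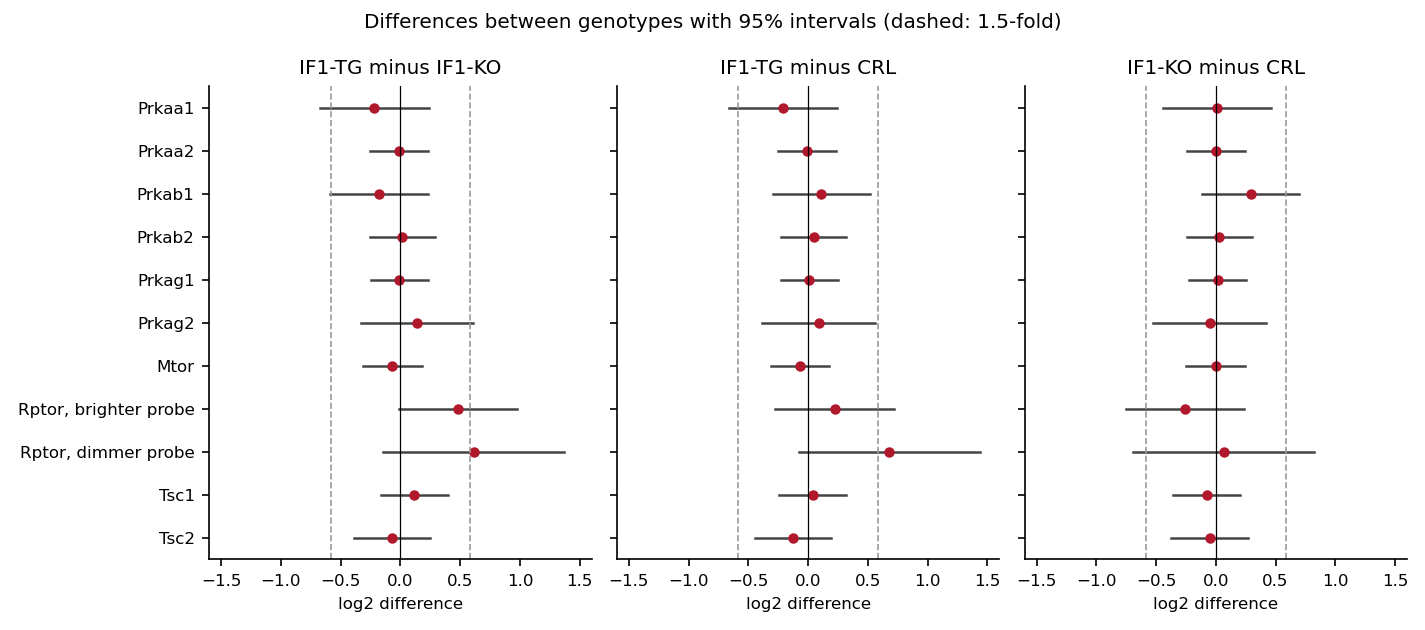
Log2 differences (x axis) of the 11 probes in the 3 comparisons, as points with 95% intervals from the limma fit of all 9 arrays, and dashed lines at a fold change of 1.5 either way. Every interval includes 0, those of *Prkaa2*, *Prkag1* and *Mtor* are among the narrowest, and those of the dimmer *Rptor* probe are the widest.

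*Tsc1* and *Tsc2* encode the 2 large subunits of the TSC complex. *Tsc1*, or hamartin (chr2:28546610-28546669, plus strand), was 0.95, 1.09 and 1.00 in *IF1*-KO, 1.22, 1.10 and 0.95 in CRL and 1.26, 1.15 and 0.98 in *IF1*-TG mice. *Tsc2*, or tuberin, whose GTPase-activating domain acts on Rheb (chr17:24732882-24732941, minus strand), was -3.86, -3.74 and -3.88, then -3.69, -3.75 and -3.89, and -3.74, -3.80 and -4.17 in the same order of genotypes. In both the genotypes overlapped, and for *Tsc2* the lowest array was *IF1*-TG replicate 3. The log2 differences of *Tsc1* were 0.12 between *IF1*-TG and *IF1*-KO, 0.04 between *IF1*-TG and CRL and -0.08 between *IF1*-KO and CRL mice (standard error 0.12 each). With slide as a block the *Tsc1* differences of *IF1*-TG mice turned to -0.07 against *IF1*-KO and -0.13 against CRL mice (standard errors 0.18 and 0.17). In the fit with genotype only, the *Tsc2* differences in the same order of comparisons were -0.07, -0.13 and -0.05 (standard error 0.14 each). With *IF1*-TG replicate 3 left out the *Tsc2* differences of *IF1*-TG mice turned to 0.06 against *IF1*-KO and 0.01 against CRL mice. With slide as a block, where that array alone stands for *IF1*-TG, they were -0.38 (standard error 0.17, unadjusted *P* = 0.0654 and adjusted *P* = 0.779 in limma) and -0.41 (standard error 0.16, unadjusted *P* = 0.0376 and adjusted *P* = 0.415 in limma), both short of a 1.5-fold change.

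The narrow spread of several members lets the data bound how far their signal in the whole hippocampus could have moved. These bounds hold for targeted and untargeted cells together. Those for *IF1*-KO mice include replicate 1, whose label the *Atpif1* probe did not bear out. The 95% interval lay within a 1.5-fold change either way for 6 of the 11 probes between *IF1*-TG and *IF1*-KO mice, beside 45.8% of all probes, and for 8 of 11 in each comparison with CRL mice, beside 45% for *IF1*-TG and 50.3% for *IF1*-KO mice. *Prkaa2*, *Prkab2*, *Prkag1*, *Mtor*, *Tsc1* and *Tsc2* met this in all 3 comparisons in the fit with genotype only. With slide as a block *Mtor* no longer met it in *IF1*-TG against *IF1*-KO mice, where its interval ran from 0.665-fold to 1.15-fold, and *Tsc2* in neither comparison of *IF1*-TG mice, with intervals from 0.578-fold to 1.02-fold against *IF1*-KO and to 0.978-fold against CRL mice. *Prkag2* then met it in all 3 comparisons, and the counts became 5, 6 and 8 of 11 probes, beside 18.8%, 20.5% and 52.7% of all probes, a comparison added after the intervals had been seen. The standard deviation within genotypes was 0.07 for *Prkag1*, 0.08 for *Prkaa2* and *Mtor*, 0.11 for *Prkab2* and 0.12 for *Tsc1*, against a median of 0.24 over all kept probes. Of the 11 probes, 7 were below that median, and the dimmer *Rptor* probe, at 0.46, was more variable than 85.7% of kept probes. *Prkag1* is the mean of its spots on each array, which the other members are not.

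**Figure D4:**
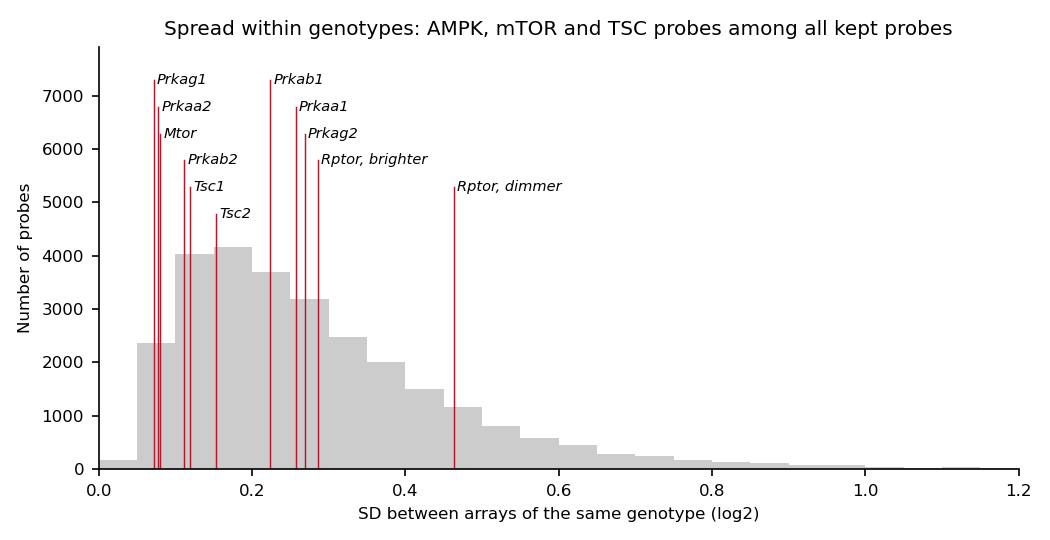
Histogram of the standard deviation between arrays of the same genotype (x axis, log2 units) for all kept probes, with the number of probes on the y axis and lines at the values of the 11 probes. *Prkag1*, *Prkaa2* and *Mtor* stand at the narrow end, at 0.07 to 0.08, and 4 of the 11 lines fall above the median of 0.24.

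The correlations between the 10 genes over the 9 arrays had both signs. Across their 45 pairs Pearson's *r* had a median of 0.01, was above 0 in 23 pairs and ranged from -0.58 to 0.80, given as a description over arrays that share slides and genotypes. *Prkab2* and *Prkag2*, the pair with the highest value, had *r* = 0.80, and 0.78 without *IF1*-TG replicate 3. *Prkaa1* and *Tsc2* came next with 0.79, but with -0.20 once that array was left out. Leaving it out also lowered *r* from 0.67 to 0.06 for *Prkaa1* and *Mtor*, from 0.31 to -0.49 for *Prkaa1* and *Prkaa2* and from 0.79 to 0.53 for *Mtor* and *Tsc2*. It raised *r* from 0.68 to 0.85 for *Tsc1* and *Tsc2*, from 0.06 to 0.64 for *Prkag2* and *Tsc2* and from -0.13 to 0.81 for *Prkaa1* and *Rptor*. *IF1*-TG replicate 3 held the lowest level of *Prkaa1*, *Prkaa2*, *Mtor* and *Tsc2* among the 9 arrays, and CRL replicate 1 held the highest of 5 of the 10 genes.

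Among 21657 genes compared by their brightest probe, those whose levels over the 9 arrays most resembled *Prkaa2* were *Sytl2* and the transcript named ENSMUST00000176526 (*r* = 0.94 each) and *Nbeal1* (*r* = 0.92). For *Mtor* they were *Ano7* (*r* = 0.95), the kinase gene *Rps6ka3* (*r* = 0.93) and *Slc25a18* (*r* = 0.92). These are the highest of many correlations over 9 arrays and are given as a description.

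The wider pathway was read from a list of 79 further genes, all on the array and tested, with 126 probes. Few of them passed the thresholds, and none had an adjusted *P* under 0.412 in limma. In *IF1*-TG against *IF1*-KO mice 3 of 79 genes (3.8%) had a probe past both thresholds, beside 4.7% of all 21905 genes. Of these, 2 were higher in *IF1*-TG mice, beside 2.15% of all genes, and 1 was lower, beside 2.56%. Against CRL mice, *IF1*-TG mice had 3 of 79 (3.8%), beside 5.59%, with 2 higher (2.83% of all genes) and 1 lower (2.79%). *IF1*-KO mice had 2 of 79 (2.53%) against CRL mice, beside 1.34%, with both higher (0.808% of all genes) and 0 lower (0.539%). At an unadjusted *P* below 0.05 alone the counts were 6, 11 and 4 genes, beside 8.83%, 10.5% and 3.24% of all genes. The median difference of the list was 0.03 between *IF1*-TG and *IF1*-KO, 0.00 between *IF1*-TG and CRL and -0.02 between *IF1*-KO and CRL mice.

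*Rictor*, the scaffold of mTOR complex 2, was the only one of the 79 genes past the thresholds in more than 1 comparison. It was -0.12, -0.20 and -0.23 on the *IF1*-KO arrays, -1.08, -1.39 and -0.43 on the CRL arrays and 0.25, -0.37 and 0.22 on the *IF1*-TG arrays. All 3 CRL arrays were below all 6 others, with CRL replicate 3 closest to them. Its log2 difference was 1.00 between *IF1*-TG and CRL mice (standard error 0.26, adjusted *P* = 0.412 in limma) and 0.78 between *IF1*-KO and CRL mice (standard error 0.26, adjusted *P* = 1 in limma). Both differences rest on the same 3 CRL arrays. Without CRL replicate 2 they were 0.79 and 0.57, and the second no longer passed. Leaving out the array labelled *IF1*-KO replicate 1 gave 0.75 for the second. With slide as a block the difference was 1.30 for *IF1*-TG and 0.67 for *IF1*-KO against CRL mice, both past the thresholds. The summed level of 7 striatal markers ranged from 13 to 22.5 times the 75th percentile on CRL arrays, from 11.8 to 13.1 on *IF1*-KO and from 9.92 to 14.6 on *IF1*-TG arrays, with 0 of 7 markers higher in either genotype than in CRL mice, and its part in the *Rictor* difference was not tested. The other named subunits of the mTOR complexes, among them *Mlst8*, *Akt1s1*, *Deptor* and *Mapkap1*, did not pass the thresholds in any comparison.

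Among the substrates and outputs of mTOR complex 1, *Rps6kb1*, the gene of S6 kinase, passed between *IF1*-TG and CRL mice in its brightest probe, with a log2 difference of 0.86 (standard error 0.35, adjusted *P* = 0.568 in limma). Its levels were 3.13, 1.89 and 2.97 in *IF1*-TG, 1.45, 1.58 and 2.37 in CRL and 2.72, 2.37 and 2.59 in *IF1*-KO mice. CRL replicate 3 lay above *IF1*-TG replicate 2, so these genotypes overlapped. In the brightest probe the *IF1*-KO arrays also lay above all CRL arrays, the nearest pair almost meeting, by 0.76 in the mean (unadjusted *P* = 0.0607 in limma). The dimmest probe was 0.33 higher in *IF1*-TG mice than in *IF1*-KO mice, without overlap (unadjusted *P* = 0.0297 in limma) but short of a 1.5-fold change. Against CRL mice, the 2 other probes differed by 0.00 and 0.45 in *IF1*-TG mice, neither past the thresholds. The value of 0.45, in the dimmest probe, came without overlap (unadjusted *P* = 0.00662 and adjusted *P* = 0.45 in limma) and missed on fold only. The brightest probe did not pass without CRL replicate 1 (0.69) or 2 (0.75) or *IF1*-TG replicate 1 (0.63) or 3 (0.71), nor, at the same difference, without *IF1*-KO replicate 2 or 3 or in a fit of only *IF1*-TG and CRL mice, nor with slide as a block (1.27, unadjusted *P* = 0.0526 in limma). None of the other 13 genes of this group, which include the translation repressors *Eif4ebp1* and *Eif4ebp2* and the elongation factor kinase *Eef2k*, passed in any comparison.

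AMPK substrates gave 2 of 14 genes past the thresholds in *IF1*-TG against *IF1*-KO mice (4.7% of all genes), 0 of 14 in *IF1*-TG against CRL mice (5.59%) and 1 of 14 in *IF1*-KO against CRL mice (1.34%). *Crtc2*, a coactivator of CREB, was 0.64, 0.53 and 0.40 in *IF1*-TG and -0.56, 0.20 and 0.08 in *IF1*-KO mice, with no overlap. Its log2 difference was 0.61 (standard error 0.22, adjusted *P* = 0.674 in limma), while its other probe gave -0.07. It no longer passed once the array labelled *IF1*-KO replicate 1 was dropped (0.38), nor without replicate 1 (0.55) or 2 (0.61) of the *IF1*-TG mice, nor with slide as a block (0.55), nor after normexp and quantile normalization (0.44). *Tbc1d1*, a Rab GTPase-activating protein, had a log2 difference of -0.87 for *IF1*-TG minus *IF1*-KO in its dimmer probe (standard error 0.23, adjusted *P* = 0.66 in limma), which was well above background on 1 of 3 *IF1*-TG arrays and kept through the other genotypes. The brighter probe of *Tbc1d1* gave -0.25, and the dimmer one no longer passed with slide as a block (-0.34) or after normexp and quantile normalization (-0.36). *Acaca*, the gene of acetyl-CoA carboxylase, passed in *IF1*-KO against CRL mice in 1 of its 4 probes, with a fitted log2 difference of 1.65 (standard error 0.57, adjusted *P* = 1 in limma). This dim probe was kept through the *IF1*-KO arrays, since it was well above background on 3 of 3 of them, on 2 of 3 CRL arrays (not on CRL replicate 1, at -7.10) and on 1 of 3 *IF1*-TG arrays, so a difference was favoured by the filter. In it the array labelled *IF1*-KO replicate 1 read -3.59 and the other 8 arrays from -7.10 to -5.46. Without that array the difference was 0.96, still past the thresholds, and without CRL replicate 1 it was 1.42 and did not pass. Its brightest probe gave 0.03.

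Among the Rag GTPases and their lysosomal scaffold, which recruit mTOR complex 1, *Rragd* was -3.38, -3.83 and -2.98 in *IF1*-TG and -3.93, -4.04 and -4.00 in *IF1*-KO mice, with no overlap. The log2 difference was 0.60 (standard error 0.23, adjusted *P* = 0.68 in limma), and it failed the thresholds when any *IF1*-KO array or *IF1*-TG replicate 1 or 3 was left out (0.39 to 0.63), and after normexp and quantile normalization (0.42). *Lamtor3* passed between *IF1*-TG and CRL mice in its dimmest probe, at -0.98 (standard error 0.32, adjusted *P* = 0.506 in limma), while its 2 brighter probes gave 0.13 and -0.14. It did not pass without *IF1*-TG replicate 2 (-0.73) or with slide as a block (-1.02, unadjusted *P* = 0.0839 in limma). For the 5 genes with several probes that passed in 1 of them, the remaining probes did not pass, and which probe follows the protein-coding transcript was not determined.

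None of the 8 upstream kinases and partners of AMPK, which include *Stk11* (LKB1) and *Camkk2*, passed the thresholds in any comparison. The same held for all 13 genes of the GATOR complexes and amino acid sensors and for *Rheb*, *Rhebl1* and *Tbc1d7*. With 4.7%, 5.59% and 1.34% of all genes past the thresholds in the 3 comparisons, counts of 0 in groups of this size are near the background and set these genes apart in no way. No threshold was passed by *Akt1*, *Akt2*, *Pdpk1*, *Ddit4* or *Ddit4l*.

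**Figure D5:**
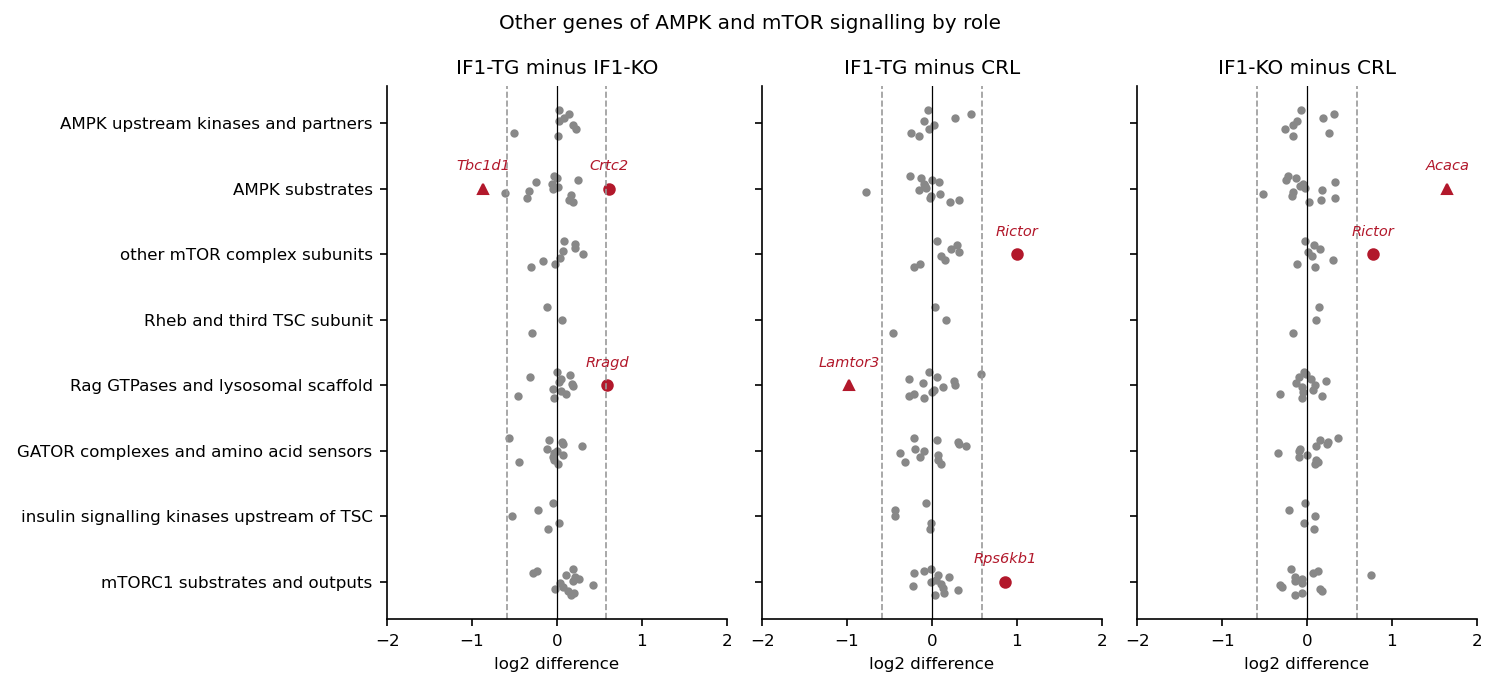
Log2 differences (x axis) of 79 further genes of AMPK and mTOR signalling, grouped by role (y axis), in the 3 comparisons. Grey points are the brightest probe of each gene, red circles a brightest probe and red triangles a dimmer probe past both thresholds, and dashed lines mark 1.5-fold; *Rictor* is the one gene marked in 2 panels, at 1.00 and 0.78.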

How the data were processed

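Hippocampal RNA of 9 mice was measured on 9 arrays, grouped by the sample labels. The authors deposited the processed spot intensity of Agilent Feature Extraction 10.7, background-subtracted and detrended within each array and not normalized between arrays, with uncorrected spot and background intensities beside it. Per the labels' processing notes, the submitters used limma. Slides were read from the file headers.

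The processed intensity was divided by the 75th percentile on each array and taken to log2. Spots marked as outliers were dropped, and repeated spots averaged. A probe was kept (27991 of 39429) if some genotype had it well above background on each of its 3 arrays. No spot was saturated, and the number of arrays limits the precision. A gene is given by its brightest probe unless another is stated. All 9 arrays entered a single limma 3.58.1 fit (R 4.3.3, eBayes) with genotype only, and *P* values were adjusted over all kept probes (Benjamini-Hochberg). The fit was run on simulated data with known shifts, drawn without differences between slides, so that run does not cover the layout of slides. Replicates are single mice on single arrays. The *P* values rest on the spread between arrays of a genotype, which holds differences between mice, slides and spots together.

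The genes given with values are the 10 members, *Atpif1*, further pathway genes with a probe past both thresholds and the 3 genes most correlated with *Prkaa2* and with *Mtor*. Other pathway genes are named only as not past the thresholds. The members and lists, with markers of hippocampal neurons, interneurons, oligodendrocytes, astrocytes, microglia, endothelium, choroid plexus, striatum and thalamus, were chosen with earlier results of these data known. Alternatives were normexp background correction (offset 50) with quantile normalization, quantile normalization alone, other filters on dim probes, slide or replicate number as a block, fits of 2 genotypes, other eBayes options, averaging over a gene's probes and each array left out. Some genes of the pathway list are not reported here.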

Additional observations from a re-analysis of the deposited data

How the results depend on the processing

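The count of member probes past the thresholds, 0 of 11 in each comparison, became 1 between *IF1*-TG and *IF1*-KO and 1 between *IF1*-TG and CRL mice with slide as a fixed block (*Prkaa1* in both), and ranged from 0 to 1 in both comparisons when each array was left out (*Rptor*). It stayed at 0 between *IF1*-KO and CRL mice under every alternative run. Over the 627 values of single members under alternatives, 561 kept their direction and side of the thresholds, 61 changed sign without passing and 5 came to pass. For the 79 further genes, the count of 3 in *IF1*-TG against *IF1*-KO mice became 1 with normexp and quantile normalization (none of *Crtc2*, *Tbc1d1* and *Rragd*), 7 with slide as a fixed block (where 6.41% of all genes passed), 1 with the mean of a gene's probes, and 1 to 5 with an array left out, namely 1 without *IF1*-KO replicate 1 and 5 without *IF1*-KO replicate 3, and likewise 5 without replicate 1 or replicate 2 of *IF1*-TG. The count of 3 between *IF1*-TG and CRL mice became 10 with the slide block (where 9.93% of all genes passed), 1 with the mean of probes and 2 to 5 with an array left out, namely 5 without CRL replicate 2. The count of 2 between *IF1*-KO and CRL mice became 1 with probes well above background on all 9 arrays, 1 with the mean of probes and 1 to 6 with an array left out, namely 1 without CRL replicate 2 and 6 without CRL replicate 3. *Lamtor3* between *IF1*-TG and CRL mice turned from -0.98 in its dimmest probe to 0.0762 with the mean of its probes. That mean takes the probes with a usable value on each array. On their own its brighter probes gave 0.13 and -0.14. The causes of these shifts were not tested. *Rictor* kept its side of the thresholds under all 19 alternatives between *IF1*-TG and CRL mice and under 18 of 19 between *IF1*-KO and CRL mice.

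Replicate numbers are shared by the genotypes, but arrays with the same number did not deviate together (correlations of deviations from -0.17 to 0.12, other pairs from -0.25 to 0.34). With the replicate number as a block the counts were 0, 0 and 0 of the 11 member probes, of which 1 (*Rptor*, *IF1*-TG minus *IF1*-KO) had an unadjusted *P* below 0.05 in limma, and 2, 3 and 3 of the 79 further genes. The *Rptor* value was 0.48 (unadjusted *P* = 0.0392 in limma), and *Rragd* in *IF1*-TG against *IF1*-KO mice, at 0.60 (standard error 0.26, unadjusted *P* = 0.0599 in limma), no longer passed.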

Other observations

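Markers of other cell types were read on the same arrays. Over all genes, 4.7% passed the thresholds in *IF1*-TG against *IF1*-KO mice. Against CRL mice 5.59% passed in *IF1*-TG and 1.34% in *IF1*-KO mice, so counts of 0 in lists of this size are near the background. The summed level of 10 microglial markers, as multiples of the 75th percentile, was 55.4 to 62.2 in *IF1*-KO, 63.9 to 69.3 in CRL and 65.9 to 75.2 in *IF1*-TG mice, and 0 of the 10 passed the thresholds in any comparison. In the same order of genotypes, the ranges were, for 10 oligodendrocyte markers, 89.4 to 130, 119 to 155 and 130 to 159, with 0 of 10 past the thresholds, and for 8 astrocyte markers 167 to 181, 162 to 187 and 183 to 226, with 0 of 8. The 8 interneuron markers ranged from 89.3 to 96.1, 86.1 to 102 and 56.8 to 105, and the 6 endothelial markers from 12.7 to 13.6, 12 to 15.4 and 11.3 to 13.6, with 0 past the thresholds in both lists. The 6 choroid plexus markers spread widely within each genotype, from 2.05 to 95.8, 3.23 to 117 and 4.84 to 178, with 0 of 6 past the thresholds. In mean level 6 of 6 were higher in *IF1*-TG mice than in either other genotype, and 0 of 6 were higher in *IF1*-KO than in CRL mice. Of 7 striatal markers 1 was lower than in CRL mice past the thresholds in each mutant genotype, beside 2.79% of all genes for *IF1*-TG and 0.539% for *IF1*-KO mice. The 4 thalamic markers ranged from 1.2 to 1.61, 1.56 to 2.01 and 1.5 to 3.13, and 1 was higher in *IF1*-TG than in CRL mice past the thresholds, beside 2.83% of all genes. The 13 hippocampal neuron markers ranged from 116 to 133, 115 to 142 and 119 to 141, with 0 of 13 past the thresholds.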
